A study of Mus musculus with 13 samples.

Results

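The effect of the 5XFAD genotype on gene expression in mouse frontal cortex was compared between 6 and 11 months of age. The quantity described is the interaction, that is, the log2 difference between 5XFAD and wild type at 11 months minus the same difference at 6 months. All 13 of the 13 libraries of the study enter it, grouped by their titles, and 17483 of 55536 annotated genes had enough counts to be tested. A positive interaction means that the 5XFAD level stood higher relative to wild type at 11 than at 6 months, and a value of 1 on the log2 scale is a doubling of the fold change.

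The controls were wild-type mice of the strain B6SJLF1/J, with 4 libraries at 6 months and 3 at 11 months. The transgenic animals carry the strain label 5XFAD, with 3 libraries at each age. 5XFAD mice carry mutated human transgenes, including APP, driven by the mouse Thy1 promoter, so transgene expression is largely neuronal, and the line models amyloid deposition rather than of tau pathology or of sporadic disease. No drug or other agent is named in the labels. Whether each library came from 1 animal is not stated, so the p-values measure the spread between libraries, which may be partly technical.

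As background, amyloid plaques in such mice are surrounded by microglia, the phagocytes of brain tissue, which switch from a surveying state to a disease-associated state that depends on the receptor Trem2. These cells turn on genes for lysosomal proteases, lipid handling, antigen presentation and, in a subset, the type I interferon response. Astrocytes near plaques become reactive and make intermediate filaments, complement and protease inhibitors, while neuronal activity turns on the immediate early genes within minutes.

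Library totals ran from 23618289 to 26615772 expected counts, and the mitochondrial share from 7.89% to 11.43%. Xist and Y-linked genes showed that the sexes were not balanced: 2 of 4 wild-type libraries at 6 months, 0 of 3 5XFAD libraries at 6 months, 1 of 3 wild-type libraries at 11 months and 2 of 3 5XFAD libraries at 11 months were female. Female sex thus moved with the interaction. Values from a fit with sex as a covariate and from the male libraries alone are given beside the gene lists they move most, and the male-only fit rests on 1 5XFAD library at 11 months. The chi-square per gene between libraries of a group was 52.16 to 59.05 in wild type at 11 months, against 6.3 to 32.5 in wild type and 8.86 to 18.9 in 5XFAD at 6 months and 10.24 to 19.24 in 5XFAD at 11 months. The cortical marker Slc17a7 was present in every library, at 655.2 to 1481 CPM (counts scaled to the library total after edgeR's TMM adjustment). The striatal marker Drd2 varied from 7.245 to 151 CPM, and the choroid plexus marker Ttr reached 2912 CPM in wild type replicate 1 at 6 months against at most 30.8 CPM in the other libraries.

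With edgeR's quasi-likelihood test and an adjusted p under 0.05, 1 gene of 17483 passed for the interaction (0.00572%), the serine protease inhibitor gene Serpina3n. The genotype effect itself passed for 231 genes at 6 months (1.32%), of which 228 were higher (1.3%) and 3 lower (0.0172%) in 5XFAD, and for 753 genes at 11 months (4.31%), of which 665 were higher (3.8%) and 88 lower (0.503%). At 6 months 1589 genes had an unadjusted p under 0.05 (9.09%), 981 higher (5.61%) and 608 lower (3.48%). The difference between the counts of the 2 ages is not a test of growth. An unadjusted interaction p under 0.05 was reached by 692 genes (3.96%), 449 of them with a positive value (2.57%) and 243 with a negative one (1.39%). DESeq2 called 30 of the 16789 genes to which it gave an adjusted p (0.179%), 28 with a positive (0.167%) and 2 with a negative interaction (0.0119%). Over all tested genes the median interaction was -0.01, and 47.9% of estimates were above 0.

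**Figure D1:**
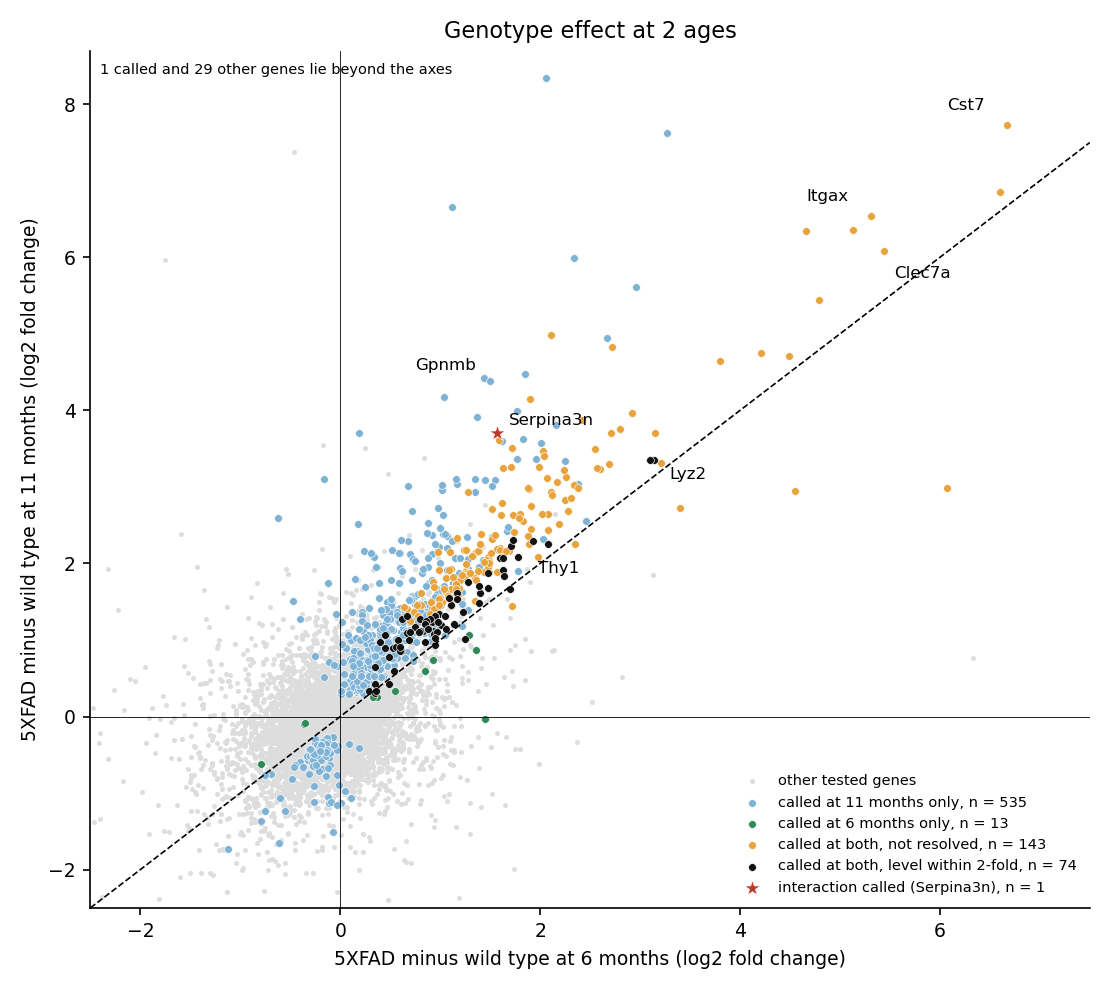
Genotype effect (5XFAD minus wild type, log2 fold change) at 6 months on the x axis and at 11 months on the y axis, 1 point per tested gene, coloured by the ages at which edgeR called it, with the dashed line at equal effects. Most of the 218 genes called at both ages lie above the dashed line, 535 genes were called at 11 months only, and Serpina3n is the one gene called for the interaction.

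Serpina3n (ENSMUSG00000021091, GRCm38 chr12:104406729-104414329, plus strand) encodes a secreted serine protease inhibitor that reactive astrocytes make. In wild type it stood at 9.951, 12.35, 10.09 and 12.58 CPM in the 4 libraries at 6 months and at 10.76, 12.32 and 11.91 CPM at 11 months. In 5XFAD it stood at 43.76, 25.21 and 31.36 CPM at 6 months and at 159.9, 148.1 and 148.8 CPM at 11 months. Each 5XFAD library lay above each wild-type library at both ages, and the 5XFAD libraries at 11 months lay above all those at 6 months without overlap. Such a separation of the 5XFAD ages is common by itself. It was met upward by 18.4% and downward by 17.3% of all tested genes. The genotype effect was 1.57 ± 0.15 (log2, SE; 2.98-fold) at 6 months and 3.71 ± 0.18 (13.1-fold) at 11 months. The interaction was 2.13 ± 0.23 with a 95% interval of 1.65 to 2.62 and an adjusted p of 0.00456 in edgeR's quasi-likelihood test. DESeq2 gave 2.15 with an adjusted p of 1.12e-14. With age the level in 5XFAD rose by 2.19 (adjusted p = 6.19e-05 in edgeR), while in wild type the change was 0.05 (adjusted p = 0.876).

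The excess of Serpina3n in 5XFAD over wild type was 22.2 CPM at 6 months and 140.6 CPM at 11 months, a ratio of 6.33. The gene passed the test with any 1 library left out. In the male libraries alone, where 5XFAD at 11 months is 1 library, the interaction was 2.05 and the adjusted p was 1. None of the 13 other Serpina3 genes of the cluster on chromosome 12 had enough counts to be tested, with at most 12 counts in a library and 5 of them at 0 throughout. How the authors' quantifier shared reads among these close copies was not tested.

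The 250 bases before the annotated RefSeq start of Serpina3n are shown because it is the gene that carries the interaction (build GRCm38.p6, chr12:104406458-104406707, plus strand, 5′ to 3′).
Serpina3n: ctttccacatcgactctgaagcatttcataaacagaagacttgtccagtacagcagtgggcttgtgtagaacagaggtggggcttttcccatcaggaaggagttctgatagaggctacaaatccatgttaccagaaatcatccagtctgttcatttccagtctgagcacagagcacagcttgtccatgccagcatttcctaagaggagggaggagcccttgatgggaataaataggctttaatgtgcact
No base is capitalised here, since none of the 6 motifs searched was found in this window. That says only that those letters are not in this stretch.

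The 231 genes called at 6 months were then followed to 11 months. The genotype contrasts of the 2 ages share no libraries, but all 13 libraries share 1 estimate of the spread, so the 11-month libraries bear on which genes were called at 6 months. At 11 months 230 of them kept their sign, 218 were again called, and 206 (89.2%) had a larger effect, against 60.7% of all tested genes whose effect was larger in size at 11 months. Their median effect was 1.30 at 6 months and 1.87 at 11 months, with a median difference of 0.50 and quartiles of 0.29 and 0.76. The unadjusted interaction p was under 0.05 for 81 genes with a larger and 4 with a smaller effect. With each library left out in turn the share with larger effects ran from 81.0% to 95.9%. Over the other settings it ran from 70.3% to 92.1%. It was 82.8% with sex as a covariate, 79.9% on log2(TPM + 1) values and 75.5% with voom sample weights. The lowest value, 70.3%, was that of the male libraries alone, where the transgenic group at 11 months is 1 library. The 60.7% of all tested genes is from the main fit only.

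The 13 genes called at 6 months and not at 11 months were few, and they were looked at after their values were seen. They include the transcription factor gene Hhex (1.29 at 6 months, 1.06 at 11 months) and the membrane protein gene Ms4a6d (1.36 and 0.87), whose values at 11 months missed the threshold. The 3 genes called lower at 6 months had smaller values at 11 months. Cacng8, which encodes an auxiliary subunit of AMPA receptors, went from -0.36 to -0.10, Lrrc24 from -0.35 to -0.08 and the zinc finger gene Zkscan16 from -0.79 to -0.62. No gene was called as a smaller or opposite effect at 11 months in the interaction test of edgeR, and the immunoglobulin-like receptor gene Milr1 went from 4.55 to 2.95 with an unadjusted interaction p of 0.0475.

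Level effects were defined by an interval, because a p that misses the threshold does not show that an effect stayed the same. A gene counted as level if it was called at both ages in 1 direction and the 95% interval of its interaction lay within -1 to 1, that is, less than a 2-fold change of the fold in either direction. This held for 74 genes, all of them higher in 5XFAD. Their interactions ran from -0.23 to 0.65 with a median of 0.30, and the interval contained 0 for 58 genes and lay above 0 for 16. With the narrower limits of -0.5 and 0.5, 8 genes remained. Of the 766 genes called at either age, 691 could be placed in no class, and among genes called at either age the interaction interval reached a median of 0.57 to each side of its estimate.

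Thy1 was among the level genes. It encodes a neuronal surface protein, and its promoter drives the transgenes. It stood at 729.7, 748.3, 639.4 and 782.8 CPM in wild type and 3143, 2492 and 2682 CPM in 5XFAD at 6 months, and at 638.4, 549.7 and 542.8 against 3250, 2155 and 3056 CPM at 11 months. The 5XFAD libraries of the 2 ages overlapped, and the excess over wild type was 2047 CPM at 6 and 2243 CPM at 11 months, a ratio of 1.10. The interaction was 0.35 ± 0.20 (95% interval -0.07 to 0.78). It was 0.14 with sex as a covariate and 0.02 in the male libraries alone. The 5XFAD library at 2155 CPM was the male one at 11 months. Mouse App, the gene for the amyloid precursor protein, had genotype effects of -0.08 and 0.09 that passed the test at neither age, and its interaction was 0.16 ± 0.14 (-0.15 to 0.47). The human transgenes were not analysed here.

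Of the 74 level genes 24 (32.4%) stand in the microglial, complement, Fc receptor, lysosome or MHC class II lists, as do 54 of the 218 genes called at both ages (24.8%) and 106 of all 17483 tested genes (0.606%). Lyz2, the macrophage lysozyme, had genotype effects of 3.14 at 6 and 3.35 at 11 months and an interaction of 0.21 ± 0.23 (-0.29 to 0.71). In 5XFAD it stood at 43.52, 44.12 and 48.53 CPM at 6 months and at 100.5, 88.51 and 143.1 CPM at 11 months, and in wild type at 4.469 to 5.856 and at 9.045 to 12.7 CPM. Both genotypes were thus higher at the later age, and Lyz2 rose with age in wild type by 1.08 (adjusted p = 0.0165 in edgeR). The transmembrane protease gene St14 behaved alike in its estimates, with effects of 3.10 and 3.35 and an age effect in wild type of 1.05 (adjusted p = 0.0428).

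The remaining level genes named by size were Slamf9, a receptor of the SLAM family (2.08 and 2.26), the checkpoint receptor gene Lag3 (1.78 and 2.09), the Fc receptor chain gene Fcer1g (1.73 and 2.31), the complement gene C1qa (1.71 and 2.23) and the C5a receptor gene C5ar1 (1.70 and 1.67). Their interactions were 0.18, 0.31, 0.58, 0.52 and -0.03. For Fcer1g and C1qa the unadjusted interval lay above 0, at 0.18 to 0.99 and 0.08 to 0.96, and below a doubling. Neither interaction passed after adjustment in edgeR or in DESeq2 (adjusted p = 0.588 and 0.861 in DESeq2). For these 2 genes the interactions were 0.13 and 0.17 in the male libraries alone and 0.47 and 0.57 with sex as a covariate. In the male libraries alone the interactions of Lyz2 (-0.24), St14 (-0.02), Slamf9 (-0.08) and Lag3 (-0.26) turned negative, while with sex as a covariate they stayed positive, at 0.16, 0.46, 0.29 and 0.39. Another level gene, chosen after its values were seen, was the sialic acid receptor gene Cd33 (0.95 and 0.94).

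Being level by this definition meant neither an unchanged fold nor a level amount of RNA. Of the 74 interactions 67 were above 0. The excess of 5XFAD over wild type in CPM was larger at 11 months for 69 of the 74 level genes and at least doubled for 44, with a median ratio of 2.12 (range 0.756 to 2.9). The highest ratio was that of Ctsa, whose genotype effect itself went from 0.45 to 1.07. Of the 74, 6 encode ribosomal proteins, with effects of 0.35 to 0.49 at 6 months and 0.31 to 0.43 at 11 months. Only 2 of these 6 were called at both ages when the dependence of counts on gene length was removed within each library.

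No gene met the definition of an effect that appears at 11 months in edgeR, which needs a called interaction and a 6-month interval that holds 0; DESeq2 placed 11 genes there. Short of that, 535 genes were called at 11 months and not at 6 months, 447 of them higher and 88 lower in 5XFAD. Missing the threshold at 6 months does not show absence: 519 of the 535 had the same sign at 6 months, and for 332 the 6-month interval lay off 0 in the same direction. For the other 203 genes it held 0, 148 of them higher and 55 lower at 11 months, and 131 of these also had an unadjusted interaction p under 0.05. The median effect went from 0.44 to 1.03 for the higher genes and from -0.18 to -0.51 for the lower genes.

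Crlf2 and Islr, chosen after their values were seen, show what such effects look like in single libraries. Where genotypes are said to be apart or to overlap, here and for other genes, the share of all tested genes was not counted. Crlf2, a cytokine receptor subunit gene, stood at 12.04, 13.24 and 15.12 CPM in 5XFAD and 11.82 to 13.27 CPM in wild type at 6 months. At 11 months 5XFAD held 26.42, 23.55 and 26.38 CPM and wild type 11.56, 14.01 and 12.62 CPM. The genotypes overlapped at 6 months, where the effect was 0.11 (95% interval -0.12 to 0.34), and were apart at 11 months, where it was 1.0 (adjusted p = 7.53e-05 in edgeR). Its interaction of 0.89 ± 0.15 had an unadjusted p of 5.26e-05 and was called by DESeq2, not by edgeR. Islr, which encodes a secreted leucine-rich repeat protein, went from -0.04 (-0.43 to 0.35) to 1.34, with 11.53, 9.264 and 10.41 CPM in 5XFAD at 6 months and 22.66, 14.44 and 24.87 CPM at 11 months.

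**Figure D2:**
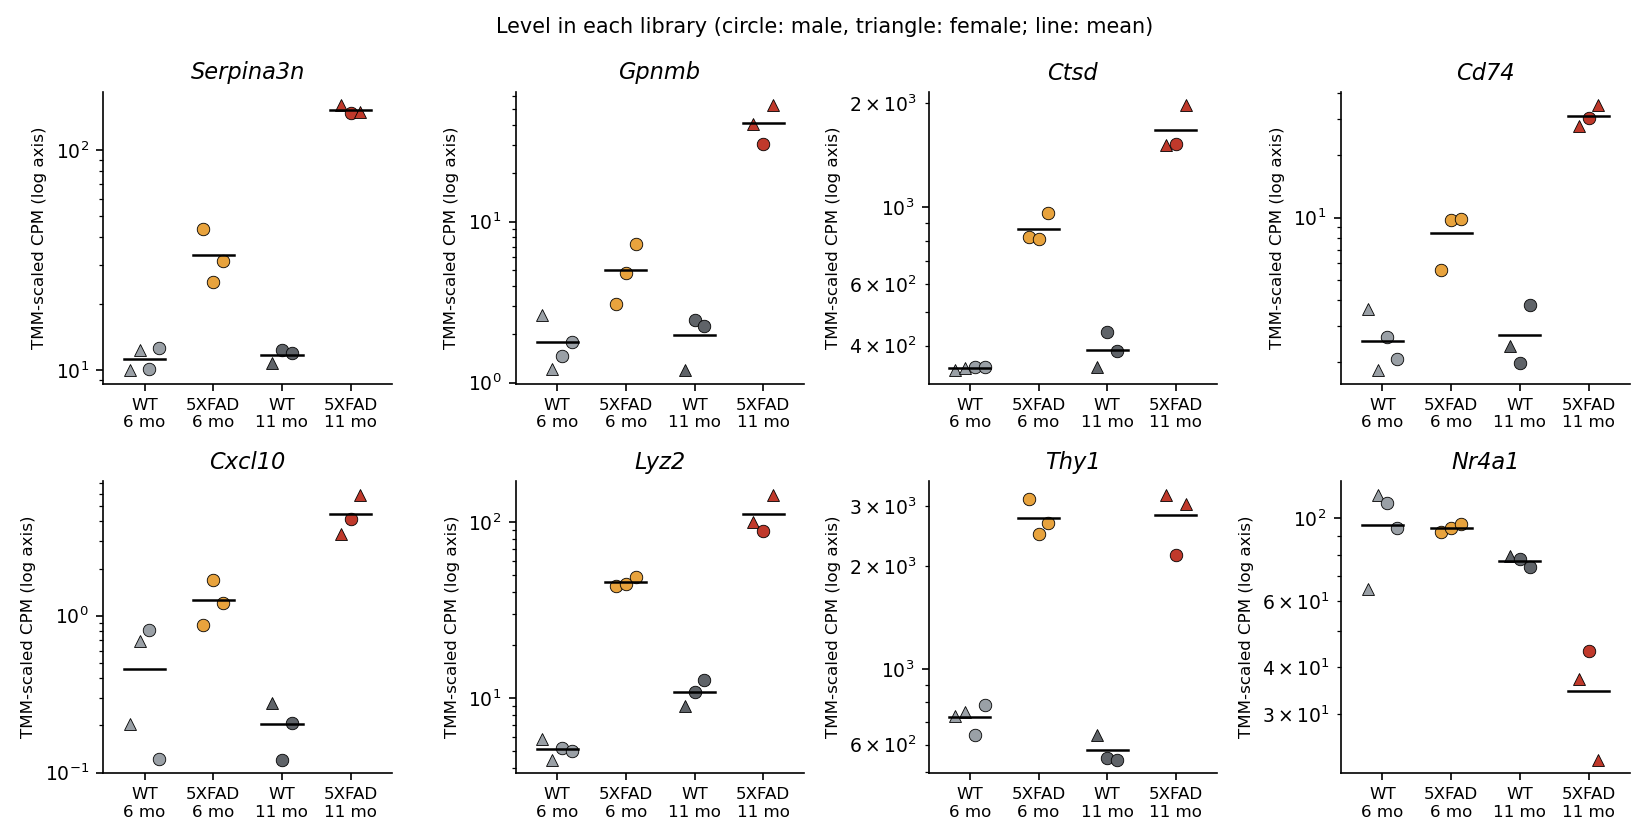
Level of single genes in each library (CPM, log scale), with 1 panel per gene, the 4 groups on the x axis, 1 point per library (circle for male, triangle for female) and a line at the group mean. Serpina3n has a mean of 11.24 and 11.66 CPM in wild type and of 33.44 and 152.3 CPM in 5XFAD at 6 and 11 months, whereas the 5XFAD libraries of the 2 ages overlap for Thy1.

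Gene groups were described by counts and medians, with no set test. The counts of every list below stand beside these shares of all tested genes. EdgeR called 1.3% higher at 6 months and 3.8% at 11 months, and 47.9% of interactions were above 0. An unadjusted interaction p under 0.05 was met by 2.57% with a positive and 1.39% with a negative value. DESeq2 called 0.167% with a positive interaction. The lists were written with earlier results of these data known, and they describe rather than support a direction. In each list the member with the smallest interaction p is named by rule, and every other member named was chosen after its values were seen. Reads from bulk tissue cannot tell more cells of a type from more RNA per cell.

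The median genotype effect of disease-associated microglia genes was larger at 11 months. Of 27 measured genes, 19 were called higher at 6 months (1.3% of all genes) and 23 at 11 months (3.8% of all genes). The median effect was 1.32 at 6 and 2.10 at 11 months, the median interaction was 0.74, and all 27 interactions were above 0, against 47.9% of all tested genes. The unadjusted interaction p was under 0.05 for 18 of them and DESeq2 called 7. In the male libraries alone the median was 0.47, with sex as a covariate it was 0.62, and with each library left out in turn it ran from 0.61 to 0.85.

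Gpnmb, which encodes a membrane glycoprotein of phagocytes, had the smallest interaction p in this list. It stood at 1.219 to 2.621 CPM in wild type at 6 months and at 3.061, 4.78 and 7.266 CPM in 5XFAD. At 11 months wild type held 1.195, 2.463 and 2.249 CPM and 5XFAD 40.18, 30.36 and 52.77 CPM, so the 5XFAD groups of the 2 ages did not overlap. The effect was 1.5 (2.83-fold, adjusted p = 0.0573) and then 4.38 (20.9-fold), and the interaction 2.88 ± 0.50 (1.79 to 3.97) had an unadjusted p of 8.65e-05 and an adjusted p of 0.405 in edgeR. DESeq2 gave it an adjusted p of 1.23e-05.

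Other members of the disease-associated set spread over a wide range of interactions. Osteopontin, encoded by Spp1, had effects of 1.02 and 3.03, and galectin 3, encoded by Lgals3, of 1.59 and 3.61. Their interactions were 2.01 ± 0.40 and 2.02 ± 0.46. The cystatin gene Cst7 and the lectin receptor gene Clec7a were already far apart between genotypes at 6 months. Cst7 had effects of 6.67 and 7.73 and an interaction of 1.06 ± 0.63 (-0.31 to 2.42), and Clec7a of 5.44 and 6.08 and 0.64 ± 0.62 (-0.71 to 1.99). Such intervals allow both growth and a level effect. The ETS site bound by PU.1, GAGGAAGT, was found in 3.57% of this list's promoter windows, in Spp1 alone, and in 2.82% of all windows.

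The receptor gene Trem2, needed for the disease-associated state, and its signalling partner Tyrobp lay between these. Trem2 stood at 79.89, 99.58 and 118.7 CPM in 5XFAD at 6 months and at 214.0, 147.9 and 271.2 CPM at 11 months, with 18.93 to 32.99 CPM over the 7 wild-type libraries. Its effects were 2.17 and 3.06, and the interaction was 0.90 ± 0.32 with an unadjusted p of 0.0149. Tyrobp had effects of 2.38 and 2.98 and an interaction of 0.60 ± 0.22. The lipid carrier gene Apoe, also an astrocyte gene, went from 0.31 (adjusted p = 0.541) to 0.97 (adjusted p = 0.00142 in edgeR), with 1626, 1773 and 2204 CPM in 5XFAD at 6 months and 3444, 3165 and 3754 CPM at 11 months.

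Homeostatic microglia genes, the markers of the surveying state, were called higher in 8 of 15 cases at 6 months and 12 at 11 months. They had a smaller median interaction of 0.35, with 14 of 15 above 0, and a median of -0.02 in the male libraries alone and 0.44 with sex as a covariate. The purinergic receptor gene P2ry12 had effects of 0.65 and 1.07, and the G protein-coupled receptor gene Gpr34 of 0.93 and 1.76 with an interaction of 0.83 ± 0.27. The Gpr34 interaction was 0.08 in the male libraries alone and 0.60 with sex as a covariate. Over this list the median age effect in wild type was 0.50, and the mean log2 list level of the wild-type libraries at 11 months was uneven, at 0.04, 0.73 and 0.42 above the wild-type mean at 6 months. The 5XFAD libraries stood at 0.69, 0.73 and 0.83 at 6 months and at 1.39, 1.35 and 1.74 at 11 months.

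Markers of other myeloid cells were low. Of 12 genes of border macrophages and monocytes 8 were measured. EdgeR called none at 6 months, where 2 were lower at an unadjusted p under 0.05, and 1 higher at 11 months, with a median interaction of 0.25. That median was -0.20 in the male libraries alone and -0.07 on log2(TPM + 1) values, and ran from 0.02 without wild type replicate 2 to 0.58 without wild type replicate 3 at 11 months. Mrc1 ranged from 0.1943 to 1.588 CPM and Cd163 from 0.2042 to 1.431 CPM over all libraries, and Lyve1 did not have enough counts to be tested. The T cell marker Cd3e lay between 0 and 0.526 CPM, highest in the 5XFAD libraries at 11 months, and was also below the count filter. What part such cells have in the values above was not tested.

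Most lysosomal genes carried positive interactions, many of them smaller than a doubling of the fold. Of 33 measured genes, 16 were called higher at 6 months (1.3% of all genes) and 26 at 11 months (3.8% of all genes). The median effects were 0.45 and 0.98. The median interaction was 0.43, 30 of 33 were above 0, 19 had an unadjusted p under 0.05 and DESeq2 called 7. Estimates ran from -0.14 to 6.29, and the list holds 1 gene that is at 0 in all libraries of a group. In the male libraries alone the median was 0.28, and with sex as a covariate it was 0.44.

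The cathepsins are the proteases of this compartment. Cathepsin L, encoded by Ctsl, had the smallest interaction p of the list. It stood at 85.45 to 94.71 CPM in wild type and 147.1, 138.5 and 137.4 CPM in 5XFAD at 6 months, and at 87.26, 76.0 and 80.11 against 220.1, 177.5 and 256.9 CPM at 11 months. Its effects of 0.64 and 1.43 gave an interaction of 0.79 ± 0.15 (0.45 to 1.12), with an unadjusted p of 0.000178 and an adjusted p of 0.453 in edgeR. Every 5XFAD library lay above every wild-type library at both ages, and the 5XFAD libraries of the 2 ages did not overlap.

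Ctsd, which encodes the aspartic protease cathepsin D, differed between ages in 5XFAD. It held 339.6 to 348 CPM in wild type at 6 months and 346.6, 436.4 and 384.7 CPM at 11 months. In 5XFAD it held 819.6, 811.3 and 963.0 CPM and then 1516, 1524 and 1970 CPM, so the ages did not overlap. The effect went from 2.51-fold to 4.29-fold, and the interaction was 0.77 ± 0.16 (0.43 to 1.12). Cathepsin B (Ctsb), the beta-hexosaminidase alpha subunit (Hexa) and protective protein cathepsin A (Ctsa) had interactions of 0.59 ± 0.13, 0.64 ± 0.13 and 0.62 ± 0.15, each called by DESeq2 and each inside the level limits of edgeR. These 3 genes thus carry positive interactions smaller than a doubling of the fold.

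The E-box TCACGTGA, the core of the element bound by the lysosomal regulator Tfeb, was searched on both strands from 250 bases before to 50 bases after each RefSeq start. It was found in 3 of 28 lysosomal windows (10.7%), those of Ctsa, Ctsd and Gla, and in 1.6% of all 15966 windows. The stretches around it are shown for Ctsd (chr7:142387909-142387936, minus strand, 99 to 92 bases before the start) and Ctsa (chr2:164833750-164833772, plus strand, 13 to 6 bases before the start), with the E-box in capitals, build GRCm38.p6.
Ctsd: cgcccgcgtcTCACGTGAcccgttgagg
Ctsa: gagcaaactgTCACGTGAtgcag
A match is a description of the sequence and not of binding.

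CD68 is a lysosomal membrane glycoprotein of phagocytes, and Cd68 had the smallest interaction p of the Fc receptor and phagocytosis list. Its 5XFAD libraries held 44.72, 49.58 and 59.37 CPM at 6 months and 122.9, 83.83 and 144.9 CPM at 11 months, against 10.28 to 15.86 CPM over all wild-type libraries. The effects were 2.07 and 3.12 and the interaction was 1.04 ± 0.27 (0.47 to 1.62), with an unadjusted p of 0.00178. The Cd68 interaction was 0.44 in the male libraries alone and 0.93 with sex as a covariate. Of 16 measured members of that list 8 were called higher at 6 months and 13 at 11 months. The median interaction was 0.42 with 15 above 0, and it was 0.09 in the male libraries alone and 0.47 with sex as a covariate.

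Complement genes were called higher in 8 of 16 cases at 6 months and 10 at 11 months, with a median interaction of 0.38 and 13 above 0. C4b, the complement component that follows C1 in the classical cascade, stood at 22.1 to 43.48 CPM in wild type and 144.3, 122.0 and 112.8 CPM in 5XFAD at 6 months. At 11 months wild type held 40.64, 27.18 and 51.26 CPM and 5XFAD 472.8, 412.5 and 437.1 CPM. The 5XFAD ages were far apart, and the effects of 2.03 and 3.47 gave an interaction of 1.45 ± 0.33 (0.74 to 2.16), called by DESeq2 and not by edgeR (adjusted p = 0.522). C1qa, which starts the same cascade, was level by the definition above, so members of 1 pathway had different estimates; the difference between the 2 genes was not tested. C4b has a close copy, C4a, and reads shared between them are uncertain. In the male libraries alone the median of the list was 0.16, and with sex as a covariate it was 0.41.

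Antigen presentation genes showed some of the larger list medians. Of 8 MHC class II genes 3 were called higher at 6 months and 6 at 11 months, with median effects of 0.95 and 1.95. All 8 interactions were above 0 with a median of 1.06, and the median was 0.74 in the male libraries alone and 1.0 with sex as a covariate. Cd74, the invariant chain that guides class II molecules, held 1.828 to 3.604 CPM in wild type and 5.604, 9.772 and 9.831 CPM in 5XFAD at 6 months, and 1.979 to 3.789 against 27.59, 30.2 and 34.91 CPM at 11 months. Its effects were 1.72 and 3.51 and its interaction 1.78 ± 0.39 (0.94 to 2.63), with an unadjusted p of 0.000534 and a DESeq2 adjusted p of 0.00881.

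The class II chain genes H2-Aa and H2-Eb1 were low at 6 months in both genotypes. H2-Eb1 held 1.073, 1.396 and 1.127 CPM in 5XFAD and 0.8532 to 2.007 CPM in wild type, which overlapped, and at 11 months 3.763, 3.145 and 5.424 against 0.8885 to 1.457 CPM, which did not. Its effect went from -0.12 to 1.75. H2-Aa went from 0.68 (adjusted p = 0.691) to 3.01, with an interaction of 2.33 ± 0.60 that DESeq2 called.

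For MHC class I presentation 4 of 17 genes were called higher at 6 months and 12 at 11 months, with median effects of 0.61 and 1.39. At 6 months 9 were higher and 0 lower at an unadjusted p under 0.05 in edgeR, against 5.61% and 3.48% of all tested genes. All 17 interactions were above 0, with a median of 0.46 that became 0.17 in the male libraries alone and 0.37 with sex as a covariate. Tap1, the peptide transporter subunit, held 3.379, 4.272 and 3.342 CPM in 5XFAD and 2.328 to 3.336 CPM in wild type at 6 months, and 8.901, 7.097 and 10.73 against 2.71, 4.039 and 3.414 CPM at 11 months. The 5XFAD and wild-type libraries nearly met at 6 months and were apart at 11 months. Its effect went from 0.41 (adjusted p = 0.573) to 1.39, and the interaction was 0.98 ± 0.29 (0.36 to 1.61).

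Type I interferon response genes were called in few cases at 6 months and in most at 11 months. Of 28 genes 3 were called higher at 6 months and 21 at 11 months, with median effects of 0.46 and 1.74. Missing the call at 6 months does not show absence. There 11 were higher and 0 lower at an unadjusted p under 0.05 in edgeR, against 5.61% and 3.48% of all tested genes. All 28 interactions were above 0, the median was 1.10, and 13 had an unadjusted p under 0.05, while neither edgeR nor DESeq2 called any of them after adjustment. The median was 0.75 with sex as a covariate, 0.65 on log2(TPM + 1) values and 0.40 in the male libraries alone. With each library left out in turn it ran from 0.80 to 1.46.

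In mean log2 level over the list, relative to wild type at 6 months, the 5XFAD libraries stood at 0.32, 0.87 and 0.50 at 6 months. At 11 months they stood at 1.44, 1.0 and 1.89, and the lowest of these was the male library. Median age effects were 1.0 in 5XFAD and -0.09 in wild type.

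Zbp1, a sensor of Z-form nucleic acids, had the smallest interaction p of the list, at low counts. It held 0.1638, 0.9345, 0.6594 and 0.1225 CPM in wild type at 6 months and 0.07969, 0.1615 and 0.2082 CPM at 11 months, where the group had 11 counts in all. In 5XFAD it held 0.477, 0.5922 and 0.544 CPM at 6 months and 2.549, 1.21 and 2.286 CPM at 11 months. Its effect went from 0.19 (adjusted p = 0.956) to 3.71, and the interaction was 3.52 ± 0.89 (1.61 to 5.44). Both arms of it were away from 0, with an age effect of 1.90 in 5XFAD (adjusted p = 0.056 in edgeR) and of -1.63 in wild type (adjusted p = 0.168). The chemokine gene Cxcl10, which interferons induce, held 0.8744, 1.692 and 1.205 CPM in 5XFAD at 6 months and 3.318, 4.113 and 5.928 CPM at 11 months, against 0.1212 to 0.8146 CPM over the wild-type libraries. The interaction of Cxcl10 was 2.99 ± 0.77 (1.32 to 4.65), with age effects of 1.82 in 5XFAD and -1.16 in wild type, where the 11-month libraries held 15 counts in all.

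Ifit3, an interferon-induced antiviral gene, held 16.46, 25.93 and 20.71 CPM in 5XFAD and 10.37 to 16.91 CPM in wild type at 6 months, which overlapped. At 11 months 5XFAD held 41.11, 26.37 and 55.98 CPM and wild type 13.03, 10.34 and 8.744 CPM, and the lowest 5XFAD value, that of the male library, was just above the highest 5XFAD value at 6 months. Its interaction was 1.34 ± 0.38.

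Promoters of this list were searched for the core of the interferon-stimulated response element, TTTC followed by any 2 bases and TTTC, on both strands. It was found in 13 of the 20 genes with a window and in 14 of 23 windows (60.9%), against 485 of 15966 windows (3.04%) overall. The 250 bases before the start are shown for Cxcl10 (chr5:92348890-92349139, minus strand; match 213 to 204 bases before the start, on the opposite strand) and Ifit3 (chr19:34583279-34583528, plus strand; matches 156 to 147 and 122 to 113 bases before the start), with the element in capitals, build GRCm38.p6.
Cxcl10: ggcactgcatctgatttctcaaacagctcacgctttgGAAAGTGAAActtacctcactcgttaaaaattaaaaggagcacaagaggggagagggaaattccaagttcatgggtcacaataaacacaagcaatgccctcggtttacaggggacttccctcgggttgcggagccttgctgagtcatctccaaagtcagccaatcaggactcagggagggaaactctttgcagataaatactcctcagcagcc
Ifit3: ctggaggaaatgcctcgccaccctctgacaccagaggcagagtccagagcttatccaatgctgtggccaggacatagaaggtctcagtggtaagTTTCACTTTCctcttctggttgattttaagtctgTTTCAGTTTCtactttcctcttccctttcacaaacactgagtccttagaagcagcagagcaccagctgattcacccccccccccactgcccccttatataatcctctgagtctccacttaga
Whether genes that hold the element differ in their interaction from those that do not was not tested.

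**Figure D3:**
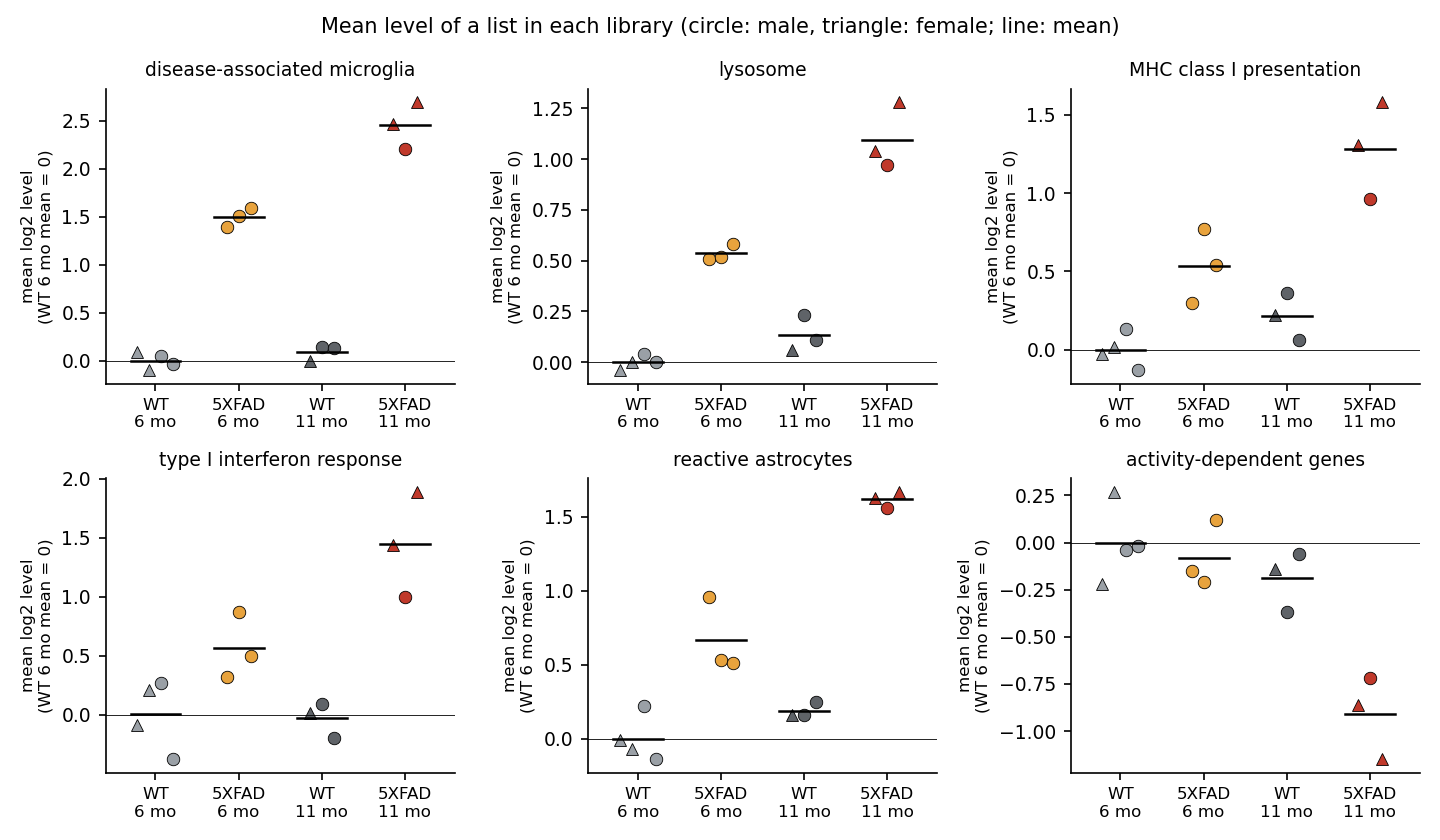
Mean log2 level over the members of each gene list, relative to the wild-type mean at 6 months, with 1 point per library (circle for male, triangle for female), a line at the group mean and the 4 groups on the x axis. For disease-associated microglia the 5XFAD libraries lie at 1.39 to 1.59 at 6 months and at 2.20 to 2.69 at 11 months, and for activity-dependent genes the 5XFAD libraries at 11 months lie at -1.15 to -0.72, below the others.

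Among chemokines and cytokines 5 of 16 measured genes were called higher at 6 months, and at 11 months 9 were higher and 1 lower. Interactions had a median of 0.63, with 12 above 0, and of 0.39 with sex as a covariate. Ccl3, which encodes a chemokine, was already at 5.922, 6.472 and 11.46 CPM in 5XFAD at 6 months against at most 0.4914 CPM in wild type. At 11 months it held 20.67, 10.36 and 17.12 CPM, which overlapped with 6 months, and the interaction was 0.64 ± 0.66 (-0.78 to 2.07). Of 18 genes of toll-like receptors and NF-kB signalling 4 were called higher at 6 and 5 at 11 months, with a median interaction of 0.33 that was 0.08 in the male libraries alone and 0.19 with sex as a covariate.

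The median genotype effect of reactive astrocyte genes was also larger at 11 months. Of 23 measured genes 5 were called higher at 6 months and 16 at 11 months, with median effects of 0.85 and 1.83. At 6 months 11 were higher and 1 lower at an unadjusted p under 0.05 in edgeR, against 5.61% and 3.48% of all tested genes. Interactions had a median of 0.94 with 21 above 0, which was 0.62 in the male libraries alone, 0.61 on log2(TPM + 1) values and 0.66 to 1.10 with each library left out. The unadjusted interaction p was under 0.05 for 10, edgeR called 1 (Serpina3n) and DESeq2 called 3. The filament gene Gfap was higher in 5XFAD at both ages, with 555.6, 381.0 and 433.8 CPM at 6 months and 1235, 1210 and 1344 CPM at 11 months, against 54.08 to 139.3 CPM over the wild-type libraries. Its effects were 2.55 and 3.49 and its interaction 0.94 ± 0.38, with an unadjusted p of 0.0285. The STAT site TTCNNNGAA, added to the search after the data were seen, was found in the windows of Gfap, Tgm1 and Emp1, in 12.5% of the list's windows and 6.78% of all windows.

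General astrocyte markers did not show this pattern. Of 16, edgeR called none at 6 months, where 4 were higher at an unadjusted p under 0.05, and 2 higher at 11 months, with medians of 0.18 and 0.16 and a median interaction of -0.03. Their median age effect was 0.49 in 5XFAD and 0.51 in wild type. Gjb6, the connexin gene with the smallest interaction p among them, held 34.6 to 39.79 CPM in 5XFAD and 23.48 to 32.68 CPM in wild type at 6 months, and 42.72 to 61.29 and 45.59 to 69.38 CPM at 11 months. It rose with age in wild type by 0.94 (adjusted p = 0.0173 in edgeR), and its interaction was -0.43 ± 0.23.

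Activity-dependent genes formed the clearest group with negative interactions. EdgeR called none of 26 at 6 months, where 2 were lower and 0 higher at an unadjusted p under 0.05 and the median effect was -0.01, and 4 were called lower at 11 months (0.503% of all genes), where it was -0.85. Of the 26 interactions 24 were below 0 with a median of -0.68, and the unadjusted p was under 0.05 for 12 with a negative and 1 with a positive value. The male-only median was -0.59, and with each library left out it ran from -0.83 to -0.62. DESeq2 called none of them.

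Nr4a1, a nuclear receptor gene induced by neuronal activity, had the smallest interaction p of this list. In 5XFAD it held 91.7, 94.33 and 96.37 CPM at 6 months and 37.18, 44.07 and 22.63 CPM at 11 months. In wild type it held 64.7, 115.9, 110.3 and 94.31 CPM at 6 months and 79.25, 77.74 and 74.2 CPM at 11 months. The genotypes overlapped at 6 months, and at 11 months every 5XFAD library lay below every wild-type library. The effect went from -0.03 to -1.15 (adjusted p = 0.00993 in edgeR), and the interaction was -1.12 ± 0.31 (-1.79 to -0.46), with an unadjusted p of 0.00311 and an adjusted p of 0.808. In 5XFAD Nr4a1 fell with age by 1.44 (adjusted p = 0.00761), and in wild type the change was -0.32 (adjusted p = 0.377).

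The synaptic immediate early gene Arc and the transcription factor genes Fos and Egr2 lay in the same direction with wider errors. Arc held 229.9, 243.1 and 237.6 CPM in 5XFAD at 6 months and 83.1, 87.38 and 32.7 CPM at 11 months, against 162.4 to 337.6 and 143.6 to 190.9 CPM in wild type, for an interaction of -1.15 ± 0.45. Egr2 held 6.558, 7.276 and 16.13 CPM and then 1.699, 1.976 and 2.015 CPM in 5XFAD, against 4.218 to 9.792 and 3.433 to 4.997 CPM in wild type, for an interaction of -1.55 ± 0.51. Fos had an interaction of -1.04 ± 0.45. The genotypes overlapped at 6 months for each of the 3 genes and did not overlap at 11 months. The share of all tested genes with that pattern was not counted, so it is description only.

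The activity list varies with the moment and manner of tissue collection, which the labels do not give, and the part of handling was not tested. The list level of wild type at 11 months was -0.14, -0.37 and -0.06, and that of 5XFAD was -0.86, -0.72 and -1.15. The serum response element core, called the CArG box, was found in 4 of 31 windows of the list (12.9%) and in 1.38% of all windows. All 4 belong to Egr2, 1 of the 19 genes of the list with a window. Egr2 has 4 annotated windows that hold a match, some of which overlap. The cyclic AMP response element TGACGTCA was found in Dusp1 and Btg2, in 6.45% of the list's windows and 2.77% of all windows. The window before the first of these Egr2 starts is shown with the CArG box it holds in capitals, 72 to 63 bases before that start (chr10:67537316-67537565, plus strand, build GRCm38.p6).
Egr2: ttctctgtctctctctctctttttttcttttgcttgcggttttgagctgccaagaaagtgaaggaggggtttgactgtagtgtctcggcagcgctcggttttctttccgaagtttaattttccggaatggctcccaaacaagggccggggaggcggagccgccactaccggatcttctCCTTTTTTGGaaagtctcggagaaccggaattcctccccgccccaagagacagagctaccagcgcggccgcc
A match is again a description of the letters alone.

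Per2 and Vegfa, outside that list and chosen after their values were seen, were the 2 genes that DESeq2 called with a negative interaction. The clock gene Per2 held 32.2, 41.07 and 41.11 CPM in 5XFAD and 32.84 to 43.41 CPM in wild type at 6 months, and 22.01, 33.59 and 25.18 against 56.3, 49.88 and 51.72 CPM at 11 months. The genotypes overlapped at 6 months and were apart at 11 months, with an interaction of -1.02 ± 0.21. Vegfa, the endothelial growth factor gene, held 35.73, 32.49 and 38.2 CPM in 5XFAD at 6 months and 34.75, 39.72 and 35.6 CPM at 11 months. In wild type it held 37.86 to 48.76 and then 64.21 to 74.71 CPM. Here the wild-type arm moved: Vegfa rose with age by 0.70 in wild type (adjusted p = 0.0138 in edgeR) and changed by 0.05 in 5XFAD. Per2 also follows the time of day, which the labels do not give, and the part of collection time was not tested.

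Other neuronal and glial groups had medians nearer to 0. The median interaction was 0.00 for synapse genes, -0.01 for excitatory neurons, -0.21 for inhibitory neurons with 1 of 18 above 0, -0.15 for myelin genes with 1 of 18 above 0, and 0.03 for oligodendrocyte precursors. The myelin median was 0.67 in the male libraries alone and -0.49 with voom sample weights, and ran from -0.45 without wild type replicate 3 at 6 months to 0.04 without wild type replicate 1 at 11 months. Inhibitory neuron genes had median effects of -0.15 and -0.37. Their median interaction was -0.05 without wild type replicate 3 at 11 months. The list of striatum and other neighbouring regions had a median of -0.47, which was 0.06 with sex as a covariate, 0.09 on log2(TPM + 1) values, and 0.81 without that same library. Inhibitory markers are shared with striatal tissue, whose part in them was not tested.

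Non-neural groups had medians that moved with single libraries. The median interaction was 0.00 for endothelium and mural cells, -0.06 for red blood cell genes, 0.57 for meninges and fibroblasts and 0.26 for choroid plexus. The meningeal median was 0.29 without wild type replicate 1 at 6 months, 0.31 with sex as a covariate, 0.27 on log2(TPM + 1) values and 0.04 in the male libraries alone. For red blood cell genes the median ran from -0.45 to 0.41 with libraries left out, and for endothelium and mural cells from -0.15 to 0.24. The choroid plexus median ran from -0.22 to 1.69 with libraries left out, and -0.22 is its value without the Ttr-rich wild type replicate 1 at 6 months. Cholesterol synthesis genes had median effects of 0.26 and 0.23 and an interaction of -0.01, the nuclear respiratory chain 0.01, and the unfolded protein and heat shock response 0.08. In that last list Atf3, a stress-induced transcription factor gene, had effects of 1.62 and 2.79 and an interaction of 1.17 ± 0.39. The Atf3 interaction was 0.45 in the male libraries alone and 0.89 with sex as a covariate.

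**Figure D4:**
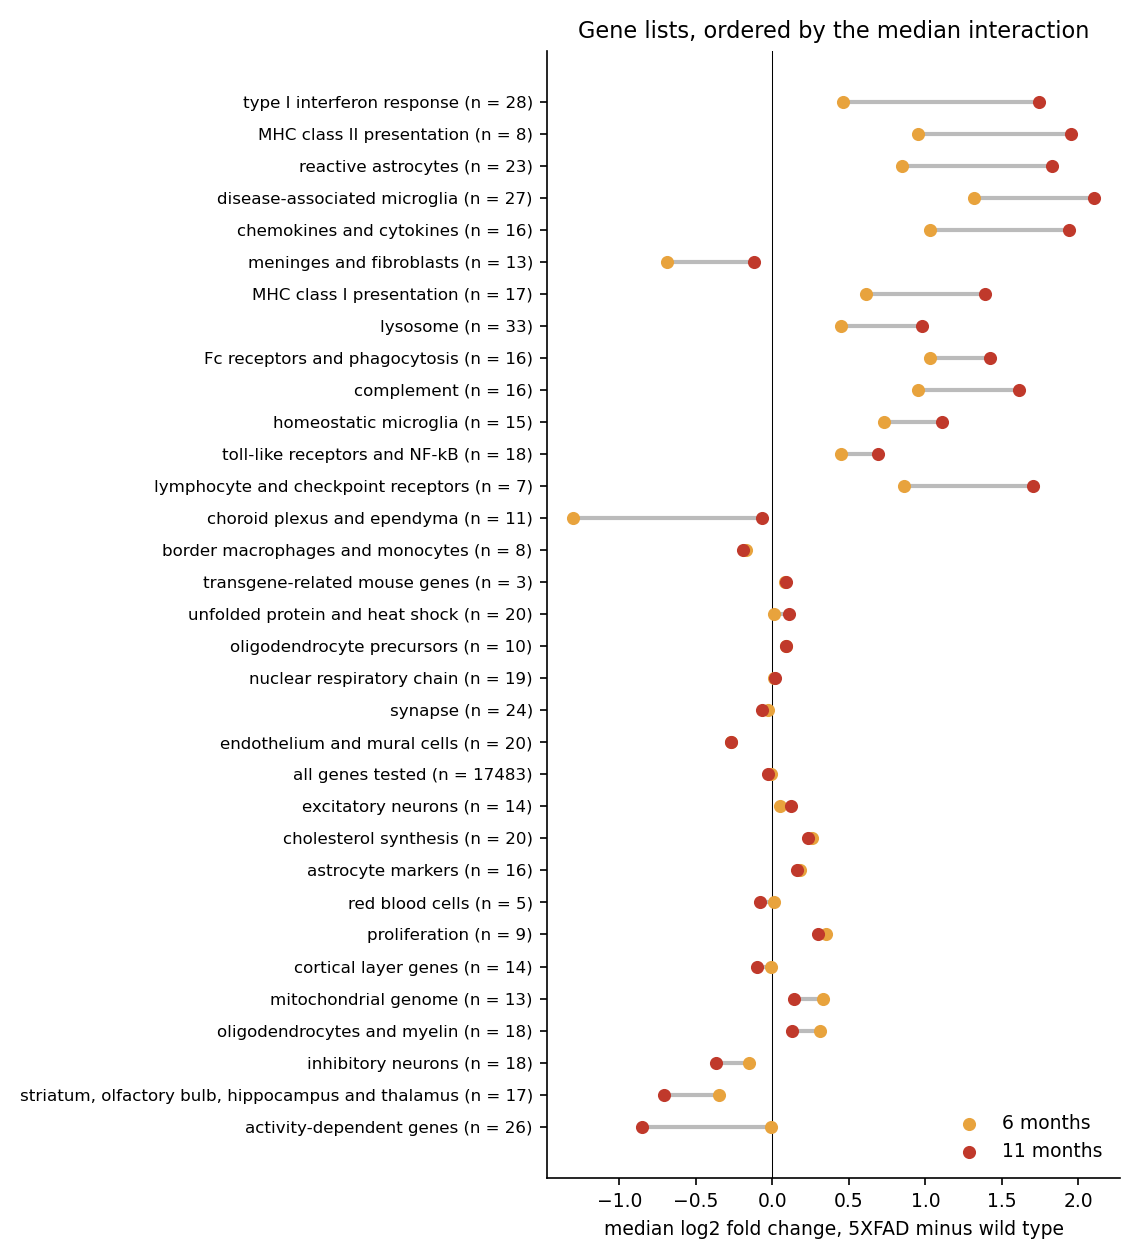
Median genotype effect (log2 fold change) of each gene list at 6 and at 11 months, with 1 row per list and 1 point per age. The interferon list moves from 0.46 to 1.74 and the reactive astrocyte list from 0.85 to 1.83, while general astrocyte markers stay at 0.18 and 0.16 and activity-dependent genes move from -0.01 to -0.85.

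An interaction can come from either genotype's change with age. These arms share libraries with the comparisons that chose the genes and are given as description only. Over the 218 genes called at both ages the median age effect was 0.97 in 5XFAD and 0.43 in wild type, and edgeR called 170 of them higher with age in 5XFAD and 14 in wild type. Over the 447 genes called higher at 11 months only it was 0.78 and 0.11. Over the 88 called lower at 11 months only it was -0.08 in 5XFAD and 0.26 in wild type, and 76 of the 88 had a positive age effect in wild type. With age 1264 genes were called in 5XFAD (7.23%), 847 higher (4.84%) and 417 lower (2.39%), and 649 in wild type (3.71%), 423 higher (2.42%) and 226 lower (1.29%). These 2 counts were the least stable: without 5XFAD replicate 3 at 11 months the first was 97, without wild type replicate 4 at 6 months the second was 0, and without wild type replicate 1 at 11 months the second was 1921.

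**Figure D5:**
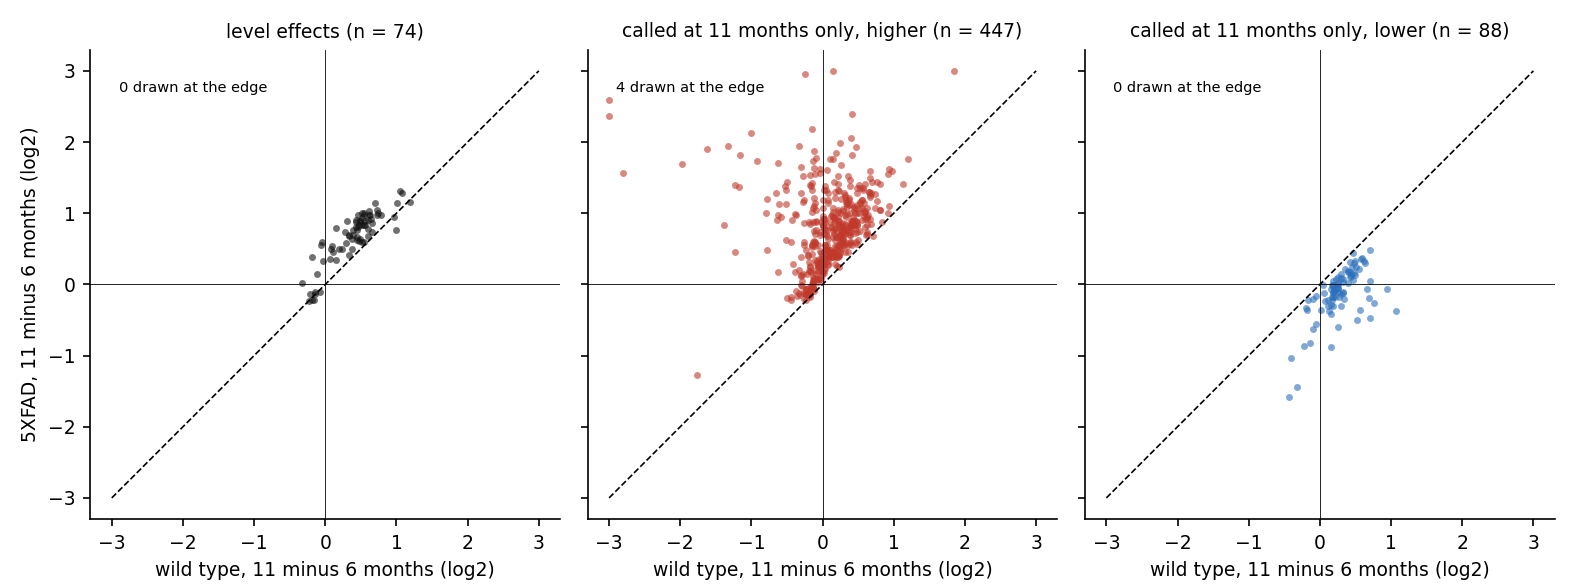
Age effect (11 minus 6 months, log2 fold change) in wild type on the x axis and in 5XFAD on the y axis, 1 point per gene, in panels for the 74 level genes, the 447 genes called higher at 11 months only and the 88 called lower at 11 months only, with the dashed line at equal age effects. Level genes centre at 0.45 in wild type and 0.76 in 5XFAD, genes called higher at 11 months only at 0.11 and 0.78, and those called lower at 0.26 and -0.08.

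The 30 genes that DESeq2 called for the interaction are named after their values were seen. Of these, 29 were called at 11 months by edgeR and 16 were not called at 6 months by edgeR. By their DESeq2 values 19 had a larger effect of the same sign at 11 months, and for 11 the 6-month interval held 0. These 11 include the unnamed gene Gm26702, with a DESeq2 interaction of 21.94 (SE 5.27). For Gm26702 edgeR gave 8.08 with an unadjusted p of 0.288. Besides genes described above, the 30 include Ggta1, a sugar transferase gene, the TGF-beta receptor gene Tgfbr2 and the small GTPase gene Rab7b, with edgeR interactions of 1.16, 0.93 and 1.65. Ggta1 held 10.33, 8.207 and 7.499 CPM in 5XFAD at 6 months and 23.83, 18.31 and 21.35 CPM at 11 months, against 3.414 to 4.523 CPM over the wild-type libraries. On log2(TPM + 1) values limma called 4 genes, Serpina3n, Gpnmb, Ctse and Asb10, all with a positive interaction.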

How the data were processed

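RNA sequencing of frontal cortex gave 13 libraries, made from total RNA with an Illumina protocol, per the labels' protocols. The submitters' processing notes name STAR 2.7.1, RSEM and the build GRCm38. For the strandedness, the gene models and RSEM's version, the sources used here give nothing. The deposited values used are expected counts per gene, RSEM's estimates, of which 7.24% to 7.71% in a library were not whole. The deposited TPM values, scaled by the authors' quantifier for transcript length, served 1 alternative, and the deposited FPKM values were not used.

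Expected counts were rounded. All 55536 gene identifiers matched GENCODE M21, and 17483 genes passed filterByExpr (minimum count 10, minimum total 15). In R 4.3.3 with edgeR 4.0.16, 1 robust quasi-likelihood model with 4 group means and TMM scaling was fitted over all libraries, with Benjamini-Hochberg adjustment over all tested genes. Values after ± are standard errors, computed as the unshrunken log2 fold change in absolute value divided by the square root of the F statistic. DESeq2 1.42.0, limma 3.58.1 on log2(TPM + 1), voom with sample weights, other filters and scalings, length offsets, sex as a covariate, male libraries only and each library left out in turn were alternatives. The procedure was tested on simulated data.

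The comparisons, classes and 32 gene lists were chosen with earlier results of these data known. Named genes were Thy1 and App, up to 15 positive and 10 negative called interactions, the 8 level genes with the largest 6-month effect and the member of each list with the smallest interaction p, skipping unnamed genes, pseudogenes and sex-linked genes. Some of these are given only through their list, and some items are not reported here. Promoter windows and sequences are from RefSeq on GRCm38.p6, with 250 bases before and 50 after a start, and 12491 genes had one. Where a window overlapped an annotated exon, a short stretch around the motif is shown. The number of libraries limits precision, and for genes with few counts in a group counting error adds to it.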

Additional observations from a re-analysis of the deposited data

Results flagged for a closer look

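The difference of the genotype effect between ages passed a test of the difference itself for 1 gene, Serpina3n, with an interaction of 2.13 on the log2 scale. Among the 40 genes named by rule, 3 had a single wild-type library at 6 months that lay far from the other 3 of its group. For Ttr this was replicate 1 at 2912 CPM, for the hemoglobin gene Hbb-bt replicate 1 at 19.29 CPM, and for Tdo2 replicate 2 at 0.8126 CPM. Only the group of 4 libraries could be examined in this way, and chance marks about 1 in 20 such groups. With 40 genes, some of the 3 marks may be due to chance. Without wild type replicate 1 at 6 months the interaction of Ttr was 0.72, against 5.79 with it.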

How the results depend on the processing

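No paired analysis was possible because the labels give the groups no shared replicate numbers. Of the counts, that of called interactions was 1 with all libraries, 30 with DESeq2, 4 on log2(TPM + 1) values and 0 in the male libraries alone, and 1 to 3 with a library left out, 3 being the value without 5XFAD replicate 2 at 11 months. In the male-only fit 5XFAD at 11 months is 1 library, assumed to vary like the other groups. The count of larger effects with a called interaction was 1, and 19, 4 and 0 under those 3 settings (1 to 2 with a library left out), and that of called interactions whose 6-month interval held 0 was 0, and 11 with DESeq2 (0 to 1). Level genes numbered 74, and 145 with DESeq2, 38 with sex as a covariate, 40 in males, 8 with the narrower limits and 33 to 116 with a library left out. Genotype calls at 6 months numbered 231, and 384 with DESeq2, 424 with voom sample weights, 101 in males and 134 to 269 with a library left out. At 11 months they numbered 753, with 108 in males and 424 (without 5XFAD replicate 3 at 11 months) to 840.

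The age genes called in 5XFAD numbered 1264, and 2063 with DESeq2, 825 on log2(TPM + 1) values, 3977 with voom weights, 3 in males, 818 with length offsets and 97 to 1801 with a library left out. The age genes called in wild type numbered 649, and 1843, 296, 163, 5 and 58 under the same settings, 345 with sex as a covariate and 0 to 1921 with a library left out. The cause of these shifts was not tested, except that the male-only fit holds fewer libraries. The interaction of Serpina3n ran from 1.98 to 2.38 over all settings and lost its call in males alone. Estimates that turned sign were, in males, C1ql1 (-0.04), Hbb-bt (0.13), Lag3 (-0.26), Lyz2 (-0.24), Mog (0.62), Slamf9 (-0.08) and St14 (-0.02). C5ar1 gave 0.24 on log2(TPM + 1) values, 0.06 with voom weights and 0.05 with sex as a covariate, and Hbb-bt gave 0.10 with that covariate. With a library left out, C5ar1 ran from -0.25 to 0.21, Hbb-bt from -0.58 to 0.33, Lyz2 from -0.02 to 0.34 and Slamf9 from -0.07 to 0.32. The other named genes kept their sign under every alternative run. On log2(TPM + 1) values the median genotype effect of all genes was -0.11 at 6 and -0.12 at 11 months, and their median interaction was 0.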
